A study of Mus musculus with 27 samples.

Results

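Hist2h2be, the array's name for the histone gene now called H2bc21, and Lrrc3b were followed in mouse olfactory mucosa with and without closure of a nostril. The members were all probes annotated to either gene, which gave 1 probe for Hist2h2be and 1 for Lrrc3b, 2 of the 29922 probes on the array and 2 of its 16637 named genes. The mucosa came from FVB mice, all female and 25 days old. The occluded group was mucosa from the side on which the nostril had been sealed by cautery, and the open group was mucosa from the other side of the same mice. The normal group came from other mice, which had a sham cautery on the muzzle and kept both nostrils open. Each group had 3 replicates with 3 arrays each, 27 arrays in all. Equal replicate numbers on the occluded and open sides were read as the same mouse or mice, which no label states. The labels also do not say whether a replicate was 1 mouse or a pool.

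Olfactory sensory neurons line the nasal cavity, are replaced throughout life and change the expression of a set of genes with the odor stimulation they receive. Closing a nostril takes most airborne odor from that side. H2be is a variant of the core histone H2B that is found mainly in olfactory neurons, and in mice it has been reported to be higher in neurons with little odor stimulation and to be linked to a shorter neuronal life span. Lrrc3b encodes a membrane protein with leucine-rich repeats, and its expression in mouse olfactory neurons has been reported to rise with odor stimulation. The tissue is whole mucosa, so fewer cells of a type and less RNA per cell cannot be told apart.

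Median array intensities lay between 123 and 274, and between 8.57% and 19.8% of an array's probes lay below its noise limit, which was 3 times the root mean square of its negative values. All 8 measured markers of mature olfactory neurons exceeded this limit on all 27 arrays. Both member probes did so as well and neither was saturated on any array. Their deposited intensities were 39.1 to 274 times the limit for Hist2h2be and 13.9 to 103 times the limit for Lrrc3b. A probe is called changed at an adjusted p under 0.05, with limma's moderated test and Benjamini-Hochberg adjustment over all probes. By this rule 66 probes, or 0.221%, were called in occluded against open mucosa, and 2 probes, or 0.00668%, in occluded against normal mucosa. The count of 66 was 0 without occluded replicate 1 or without open replicate 1, and reached 123 without occluded replicate 2. In open against normal mucosa limma called 0 probes, or 0%, where 477 had an unadjusted p under 0.05. Neither Hist2h2be nor Lrrc3b was called in any of the 3 comparisons.

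Lrrc3b is a protein-coding gene on chromosome 14, at chr14:15357515-15438987 on the minus strand of GRCm38.p6. The long noncoding RNA gene B230110C06Rik, at chr14:15437623-15452445, overlaps its 5′ end and has no named probe on the array. The sources used here do not say which stretch of the transcript the Lrrc3b probe covers. The 250 bases before the annotated start, chr14:15438988-15439237 in GRCm38.p6, from the RefSeq promoter table, are shown as the region where elements of activity-dependent genes are commonly sought.
Lrrc3b upstream: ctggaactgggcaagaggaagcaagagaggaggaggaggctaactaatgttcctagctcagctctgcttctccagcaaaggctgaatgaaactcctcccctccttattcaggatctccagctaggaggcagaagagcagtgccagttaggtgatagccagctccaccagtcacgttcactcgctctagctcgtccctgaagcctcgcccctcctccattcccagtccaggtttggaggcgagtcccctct
It runs 5′ to 3′ along the gene's own strand and has 56% G and C, against a median of 52.4% over 32851 promoters of that length. Motifs were searched on both strands and would be in capitals. The cyclic AMP response element TGACGTCA, held by 1.55% of the promoters, its core TGACG, which lies within the full element and is held by 17.8%, and the E-box CANNTG, held by 66.2%, each had 0 matches in this window.

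Lrrc3b was lower on the occluded side than on the open side in each pair of equal numbers, and its occluded and open values did not overlap. On the arrays as deposited, its intensity was 183, 301 and 189 in occluded replicate 1, 252, 315 and 345 in occluded replicate 2, and 327, 400 and 625 in occluded replicate 3. The open side had 543, 260 and 318 in replicate 1, 1242, 1249 and 1185 in replicate 2, and 623, 761 and 819 in replicate 3. The normal mice had 388, 423 and 308 in replicate 1, 543, 565 and 540 in replicate 2, and 780, 494 and 495 in replicate 3. Single arrays of the 3 groups overlapped before normalization, and those of open replicate 2 stood above all others.

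After quantile normalization and averaging of the 3 arrays, Lrrc3b had 248, 335 and 335 intensity units in the occluded replicates, 475, 1050 and 606 in the open replicates and 467, 419 and 662 in the normal replicates. All 3 occluded values were below all 6 others, and the open and normal values overlapped. Of all probes, 2.94% had all occluded values below the open ones and 3.09% below the normal ones. The share with both was not counted. On the log2 scale the means were 8.25 ± 0.25 in occluded, 9.39 ± 0.586 in open and 8.98 ± 0.346 in normal mucosa (SD, n = 3 each).

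**Figure D1:**
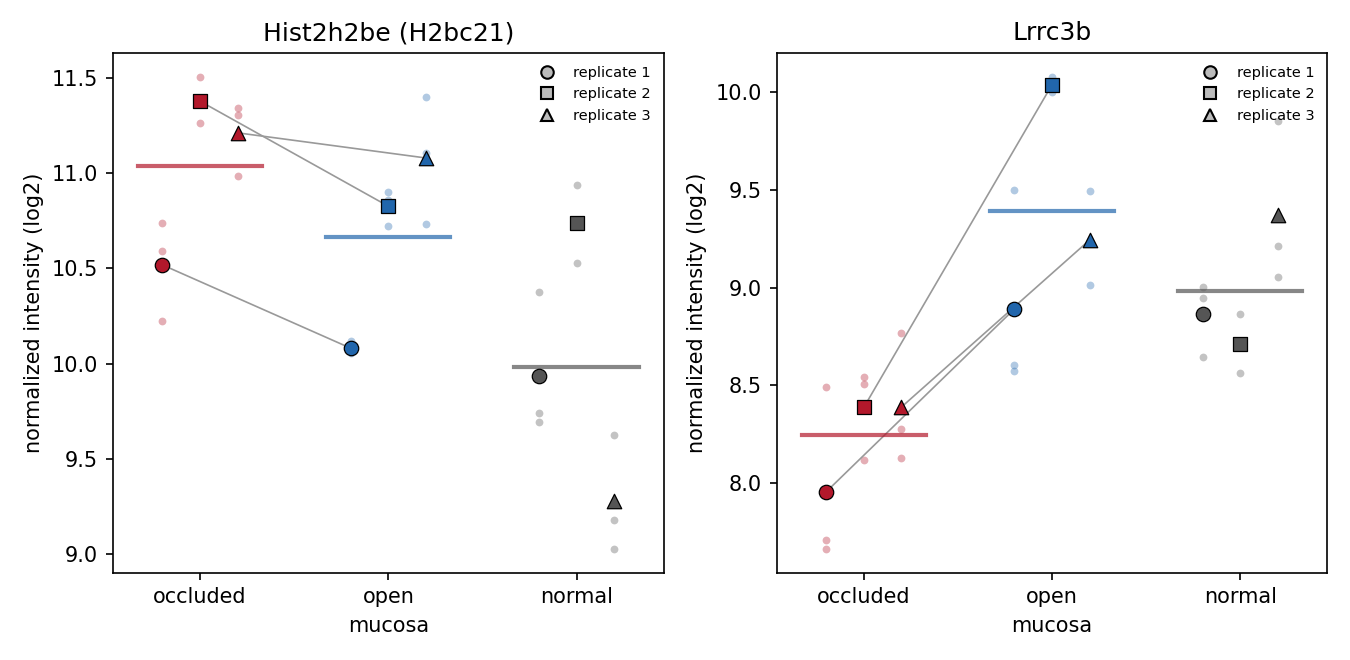
Normalized log2 intensity of Hist2h2be (H2bc21) and Lrrc3b, with 1 large point for each replicate mean of 3 arrays and small faint points for the single arrays. Thin lines join the occluded and open side with equal numbers, and flat bars mark the group mean (n = 3). Lrrc3b lies between 7.96 and 8.39 in occluded mucosa, below all open and normal replicates. Of all probes, 2.94% lie so below the open and 3.09% below the normal replicates. Hist2h2be values overlap between the groups.

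Lrrc3b differed by -1.14 ± 0.246 on the log2 scale (SE) in occluded against open mucosa, with a 95% interval of -1.70 to -0.59, so occluded mucosa had 0.452 times the open level. The unadjusted p of limma's test was 0.00131 and the adjusted p was 0.188, which is not past the threshold. By unadjusted p the probe ranked 209 of 29922. An unadjusted p under 0.05 with a lower occluded level was found for 2.63% of all probes, and occluded values that all lay below the open values for 2.94%. By number, the occluded level was 0.524, 0.319 and 0.553 times the open level in pairs 1, 2 and 3. Pair 2 differed most, through the high open value of that pair, and 12.6% of all probes were lower on the occluded side in all 3 pairs.

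Against normal mice, Lrrc3b was at 0.6 times the normal level in occluded mucosa, a log2 difference of -0.74 ± 0.315 (SE) with a 95% interval of -1.45 to -0.02. The unadjusted p was 0.0448 and the adjusted p 1.0 in limma's test. All 3 occluded replicates lay below all 3 normal ones, as did 3.09% of all probes, and an exact two-sided permutation test gave p = 0.1, the smallest that 3 against 3 values allow. Unadjusted p-values under 0.05 with a lower level were found for 1.25% of all probes. This comparison shares the occluded replicates with the comparison of sides. Without occluded replicate 1, the difference was -0.53.

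Open and normal mucosa were not told apart for Lrrc3b. The open side was at 1.33 times the normal level (95% interval 0.808 to 2.18), a log2 difference of 0.41 ± 0.315 with an adjusted p of 1.0. Open replicate 2 alone lay above every normal replicate. Without open replicate 2 the log2 difference was 0.13, and without replicate 2 of every group it was -0.05. The order of the Lrrc3b means was therefore occluded, normal, open from low to high, with no difference beyond the spread between normal and open.

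Hist2h2be is a protein-coding gene on chromosome 3, at chr3:96221072-96223738 in GRCm38.p6, within the cluster of histone genes formerly named Hist2. With 2667 bases it is longer than the clustered histone genes nearest to it, which span 468 to 649 bases. Coding sequences of H2B genes are similar, and the sources used here give neither the probe's sequence nor its position on the transcript. Signal from other H2B transcripts at this probe can therefore not be told apart from that of Hist2h2be.

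Hist2h2be was higher on the occluded side than on the open side in each pair. Each difference was smaller than the log2 SD of 0.58 between replicates of a group, a spread that ignores the pairing. On the arrays as deposited, its intensity was 1388, 1533 and 1106 in occluded replicate 1, 2238, 2599 and 2834 in occluded replicate 2, and 2774, 2650 and 3452 in occluded replicate 3. The open side had 861, 759 and 878 in replicate 1, 1992, 2128 and 2074 in replicate 2, and 2623, 3226 and 1965 in replicate 3. The normal mice had 664, 755 and 1062 in replicate 1, 2120, 1756 and 2176 in replicate 2, and 663, 487 and 485 in replicate 3. The arrays of occluded replicate 1, open replicate 1 and normal replicate 2 lay apart from the other arrays of their groups, while arrays of the remaining replicates of each group overlapped or touched.

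After normalization and averaging, Hist2h2be had 1467, 2659 and 2371 intensity units in the occluded replicates, 1083, 1815 and 2163 in the open replicates and 980, 1707 and 621 in the normal replicates. Occluded replicates 2 and 3 were the highest of all 9, and occluded replicate 1 lay below the highest open and normal values. The log2 means were 11.04 ± 0.455 in occluded, 10.66 ± 0.519 in open and 9.98 ± 0.731 in normal mucosa (SD, n = 3 each).

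In occluded against open mucosa Hist2h2be differed by 0.37 ± 0.313 on the log2 scale (SE), 1.30-fold, with a 95% interval of 0.791- to 2.12-fold. The unadjusted p was 0.264 and the adjusted p 0.988 in limma's test, and the probe ranked 7997 of 29922. By number, the occluded level was 1.35, 1.47 and 1.10 times the open level in pairs 1, 2 and 3, and 13.8% of all probes were higher on the occluded side in all 3 pairs. Without open replicate 1 the log2 difference was 0.02, and without occluded replicate 1 it was 0.71.

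The larger Hist2h2be difference was against normal mice. Occluded mucosa had 2.07 times the normal level, a log2 difference of 1.05 ± 0.4 (SE) with a 95% interval of 0.14 to 1.96. The unadjusted p was 0.0283 and the adjusted p 1.0 in limma's test, and 1.62% of all probes had an unadjusted p under 0.05 with a higher level. The groups overlapped, with 8 of 9 occluded and normal value pairs higher in occluded mucosa, and the exact two-sided permutation p was 0.2. Without normal replicate 3, which had the lowest value of all, the difference was 0.70 on the log2 scale.

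Open mucosa had 1.60 times the normal level of Hist2h2be (95% interval 0.851 to 3.01), with a log2 difference of 0.68 ± 0.4 and an adjusted p of 1.0. Without normal replicate 3 this difference was 0.32, and without normal replicate 2 it was 1.05. The means ran from normal through open to occluded, from low to high. No neighbours in this order differed beyond their spread.

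**Figure D2:**
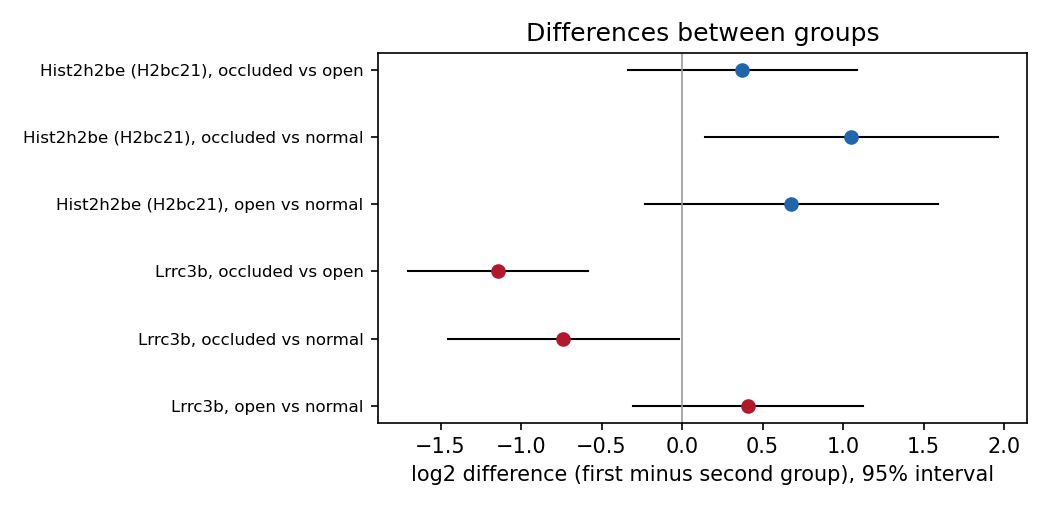
Log2 differences of Hist2h2be (H2bc21) and Lrrc3b with 95% intervals in the 3 comparisons. The Lrrc3b interval for occluded minus open runs from -1.70 to -0.59, and the Hist2h2be interval for the same comparison runs from -0.34 to 1.09.

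The genes differed in where their spread lay. For Hist2h2be the log2 SD was 0.242 between arrays of a replicate and 0.58 between replicates of a group. For Lrrc3b these were 0.326 and 0.419, and the medians over all probes were 0.317 and 0.359. Replicates of Hist2h2be thus varied more than the median probe and its repeat arrays varied less. Probes of like brightness were not compared.

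Array brightness moved with Hist2h2be in some replicates. Open replicate 1 and normal replicates 1 and 3, which had the lowest Hist2h2be levels of their groups, had array medians of 123 to 174 before normalization, against 195 to 274 in the other open and normal replicates. Occluded replicate 2, with the highest normalized Hist2h2be level, had medians of 146 to 169. The part of array brightness in these levels was not tested.

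Markers of mature olfactory neurons also moved with the groups. The summed normalized level of the 8 measured of 11 listed markers was 207908 to 224127 in occluded, 173001 to 177722 in open and 177323 to 191267 in normal mucosa, and the occluded sums lay above all others. Omp, the olfactory marker protein, is one of them and was saturated on 26 of 27 arrays. The median log2 difference of the 8 markers was 0.47 in occluded against open mucosa and 0.39 in occluded against normal mucosa, and 0 were called in either comparison. In occluded against open mucosa 8 of 8 lay above 0, with Omp at 0.003, against 51.5% of all named genes. Of the 8, 5 were higher there at an unadjusted p under 0.05 in limma's test, against 3.39% of all named genes. Hist2h2be, at 0.37 and 1.05, lay on the same side of 0 as the marker medians and Lrrc3b, at -1.14 and -0.74, on the other. The part of the marker levels in either difference was not tested.

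The 9 measured of 10 markers of immature olfactory neurons summed to 42536 to 53709 in occluded, 51574 to 61800 in open and 54057 to 65014 in normal mucosa, with a median log2 difference of -0.19 in occluded against open mucosa. For 12 measured markers of basal progenitors and cycling cells the sums were 12290 to 14403, 13728 to 15734 and 10641 to 15148 in occluded, open and normal mucosa, and the median was -0.08. Medians for the other lists in occluded against open mucosa were -0.23 for horizontal basal cells, -0.24 for sustentacular cells, -0.06 for respiratory epithelium, -0.07 for glia, 0.04 for olfactory bulb or brain, -0.34 for blood and immune cells, -0.25 for endothelium and -0.03 for skeletal muscle. No marker gene of any list was called in the 3 comparisons.

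Hist2h2be stood beside 5 further H2B genes on the array, which encode the canonical histone or germline and little-studied forms of it. None of the 6 was called in any comparison. In occluded against open mucosa their median log2 difference was 0.10, against 0.01 over all 16637 named genes, with 4 of 6 above 0. H2bc3 differed by 0.31 ± 0.208, H2bc8 by 0.20 ± 0.144 and H2bu2 by -0.33 ± 0.247 (SE). The further 3 H2bc8 probes gave -0.19, -0.25 and -0.28, so the probes of that gene disagreed in sign. In occluded against normal mucosa, with each gene shown by its brightest probe, Hist2h2be had an unadjusted p under 0.05 and the other 5 genes lay between -0.59 and 0.22. The further H2bc8 probes gave 0.95, 0.37 and -0.29 there, and the first of these was below the noise limit on 1 array and had an unadjusted p of 0.193.

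By their brightest probes, the 12 other clustered histone genes had a median log2 difference of 0.05 in occluded against open mucosa and 0.08 in occluded against normal mucosa. The 6 measured variant histones outside the clusters, which are mostly made independently of DNA synthesis, had medians of 0.09 and 0.06. The 10 measured genes listed under histone mRNA processing had -0.03 and 0.11. No gene of these lists was called in any of the 3 comparisons. Single further probes differed more in occluded against normal mucosa, by 0.99 for one H4f16 probe, with an unadjusted p of 0.0468, and by -1.42 for one H3c15 probe, with an unadjusted p of 0.0142. These probes were below the noise limit on 5 and 14 of 27 arrays.

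**Figure D3:**
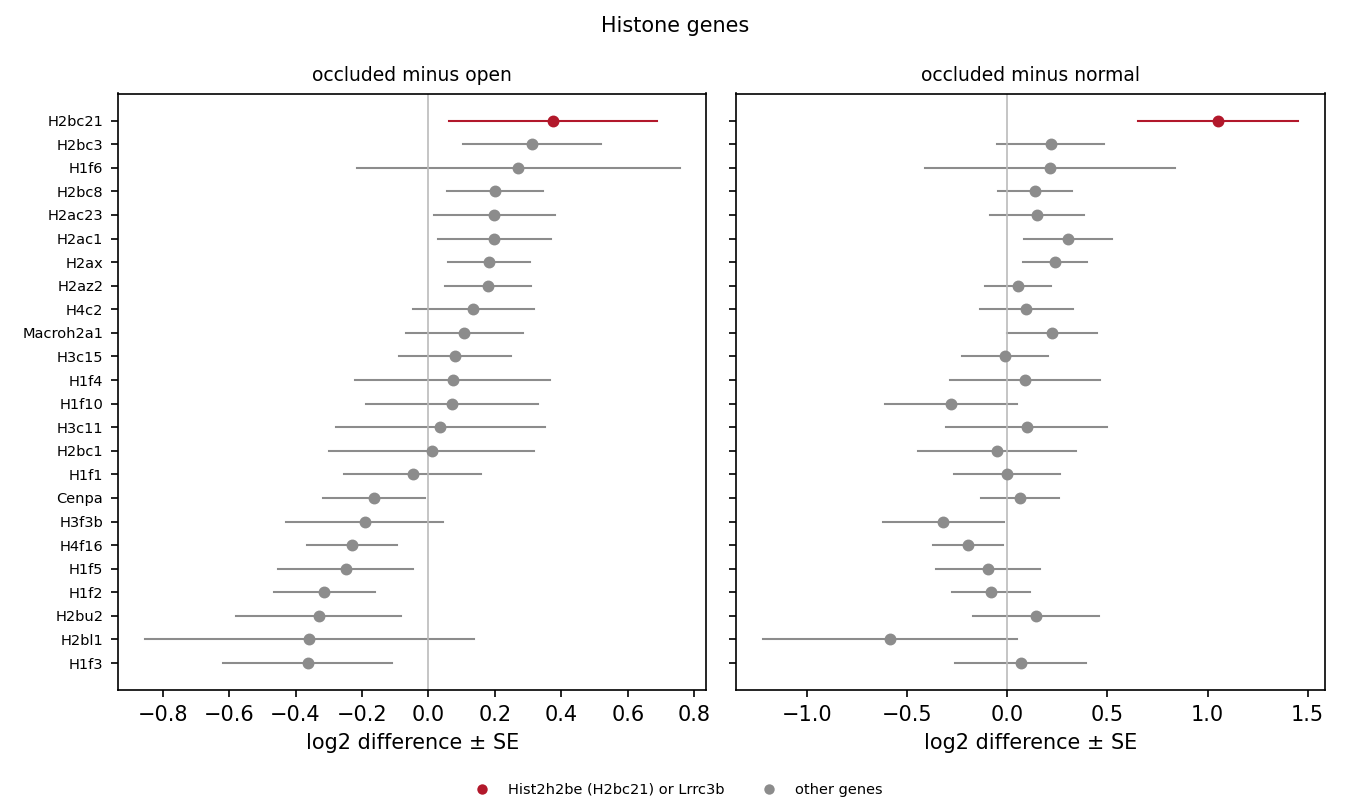
Log2 differences ± SE of the 24 histone genes with a named probe, ordered by the difference in occluded minus open mucosa, each shown by its brightest probe. Hist2h2be (H2bc21) has the highest value in both panels, 0.37 in occluded minus open and 1.05 in occluded minus normal mucosa, and no gene passed an adjusted p of 0.05.

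Of the 3 nearest genes on either side of Hist2h2be, Bola1 and H3c15 were measured. Bola1, whose protein acts in iron-sulfur cluster assembly in mitochondria, differed by 0.22 ± 0.16 in occluded against open mucosa and 0.01 ± 0.205 in occluded against normal mucosa (log2, SE). H3c15, a histone H3 gene named Hist2h3c2 on the array, had 2 probes above the noise limit on all arrays, which gave 0.08 and 0.01 in occluded against open mucosa and -0.01 and 0.17 in occluded against normal mucosa. Its other 2 probes were below the limit on 25 and 14 of 27 arrays. None of the 3 nearest genes on either side of Lrrc3b had a named probe.

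Lrrc3, the closest relative of Lrrc3b on the array, differed by -0.09 ± 0.184 in occluded against open mucosa and by -0.23 ± 0.236 in occluded against normal mucosa (log2, SE). Further leucine-rich repeat membrane proteins of neurons, among them synaptic adhesion molecules, had a median of 0.02 in occluded against open mucosa over 25 measured genes, with 13 above 0 and 0 called. Slitrk4, which differed by -0.58 ± 0.224, had the smallest p of these, with an adjusted p of 0.73. In occluded against normal mucosa their median was 0.05, and Lrrtm1 had the smallest p, with a difference of -0.52 ± 0.222 and an adjusted p of 1.0.

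The members belonged to a list of 25 genes compiled as dependent on odor activity, each with a named probe. Th, one of the 25, was also listed as a marker of olfactory bulb or brain. Whether each gene depends on odor in olfactory neurons themselves was not checked. In occluded against open mucosa 4 of the 25 fell and 0 rose at the threshold, against 10 genes, or 0.0601%, that fell and 34, or 0.204%, that rose among all 16637 named genes. At an unadjusted p under 0.05, 5 of the 25 were lower and 4 higher, against 2.16% lower and 3.39% higher among all named genes. These counts take each gene's brightest probe. Further probes of Rasgrp4, Bcl11b and Sema7a gave -1.23, -0.60 and -0.99, with unadjusted p of 0.00846, 0.014 and 0.0485 in limma's test. The Rasgrp4 and Sema7a ones were below the noise limit on 5 and 1 arrays. Further probes of Calb2 and Efna5, counted as higher, gave 0.73 and 0.90. As for all probes, 0 of the 4 calls at the threshold were left without occluded replicate 1, without open replicate 1 or with pairs as a fixed block. The 4 were S100a5, a calcium-binding protein of olfactory neurons, Kirrel2, an adhesion molecule of their axons, Pcp4l1, a relative of a calmodulin-binding protein, and Pcdh10, a protocadherin. The S100a5 probe was saturated on 12 of 27 arrays. The list holds genes reported to move in either direction, and its median of -0.06 lay near the 0.01 of all named genes. It includes Pcdh17, Bdnf and Kcnn2, which were below the noise limit on 26, 19 and 4 of 27 arrays. The list and its members were chosen with results of these data known.

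Lrrc3b, at -1.14, came after these 4 by unadjusted p among those with a lower level in occluded than in open mucosa. Pcdh10 differed by -1.18 ± 0.135 and had an adjusted p of 0.0172 in limma's test, where Lrrc3b had an SE of 0.246 and an adjusted p of 0.188. The difference was thus of about the same size and its error larger. In occluded against normal mucosa Pcdh10 differed by -1.21 and Lrrc3b by -0.74, and in open against normal mucosa by -0.03 and 0.41.

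Kirrel3, an adhesion molecule reported to be higher in olfactory neurons with little activity, differed by 0.96 ± 0.155 in occluded against open mucosa with an adjusted p of 0.0644, where Hist2h2be differed by 0.37 ± 0.313. In occluded against normal mucosa Kirrel3 differed by 0.88 and Hist2h2be by 1.05. In open against normal mucosa the differences were -0.07 for Kirrel3 and 0.68 for Hist2h2be. These comparisons share their groups.

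**Figure D4:**
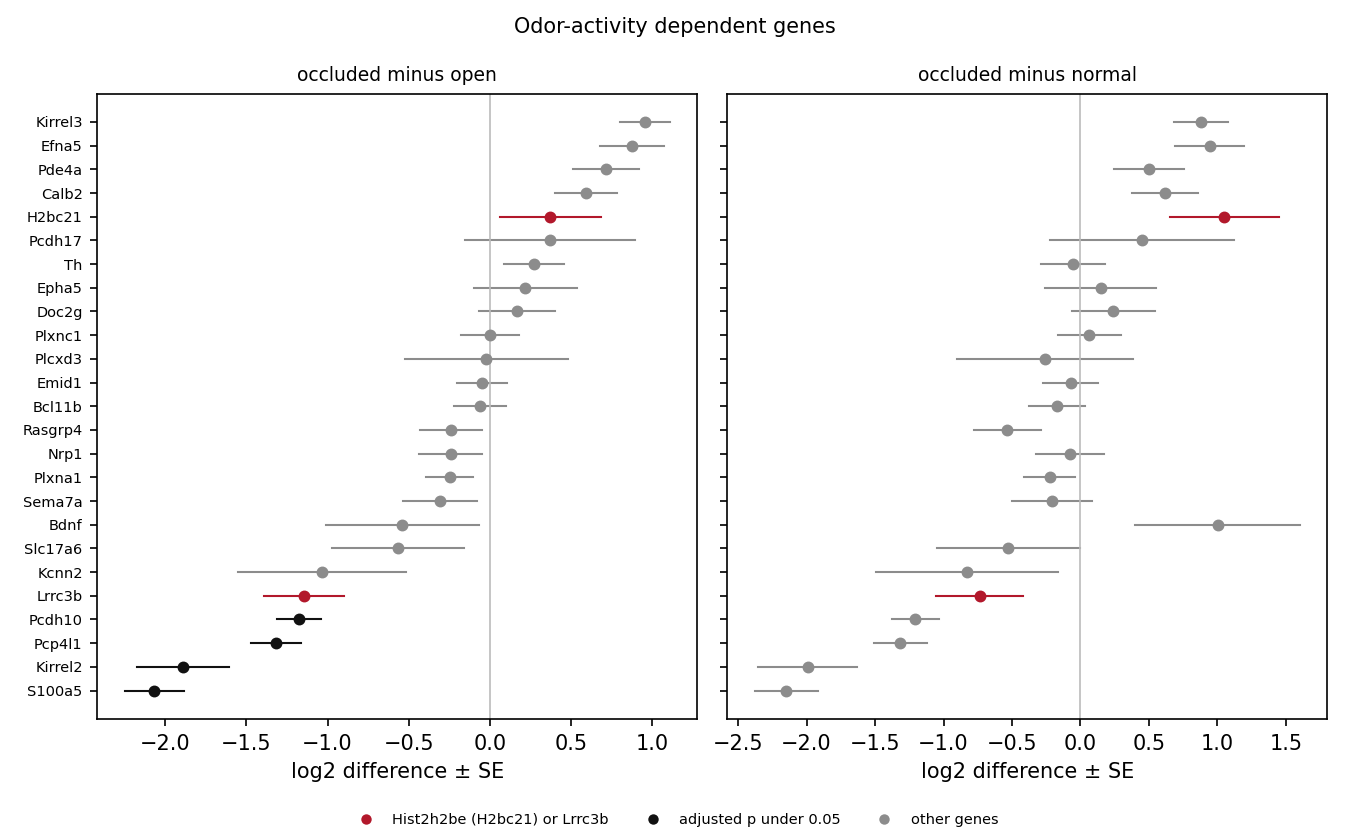
Log2 differences ± SE of the 25 genes reported to depend on odor activity, in occluded minus open and occluded minus normal mucosa. Lrrc3b lies near Pcdh10 in the left panel, at -1.14 and -1.18, with a wider error, and Hist2h2be (H2bc21) is among the genes above 0 in both panels.

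Likeness between genes was described by Pearson's r over the 9 replicate means. The 14038 named genes ranked had a mean over all arrays above the highest noise limit of any array. Predicted genes with Gm, LOC or Rik symbols were left out. The 9 points share the groups, the mice and the arrays. The closest genes are the top of a long ranking over few points, and how high r runs by chance was not tested. The genes closest to Hist2h2be were Trnt1, which adds the CCA end to transfer RNAs, at r = 0.97, Aldh6a1, a mitochondrial dehydrogenase of valine breakdown, at 0.95, Cap1, an actin regulator, at 0.943, the odorant receptor Olfr1504 at 0.94 and Cngb1, a subunit of the olfactory transduction channel, at 0.934. Trnt1 was below the noise limit on 2 of 27 arrays. It differed by 0.48 in occluded against open mucosa and 1.32 in occluded against normal mucosa on the log2 scale, and Cngb1 by 0.27 and 0.49.

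The genes closest to Lrrc3b were Cklf, a chemokine-like factor, at r = 0.927, Grap, an adaptor of receptor signalling, at 0.925, Xk, a membrane protein known from red blood cells, at 0.919, and the odorant receptors Olfr749 and Olfr1367 at 0.885 and 0.88. Their differences in occluded against open mucosa lay between -0.58 for Olfr749 and -0.19 for Cklf, each smaller in size than that of Lrrc3b. None of these 10 genes was called in the 3 comparisons. Hist2h2be and Lrrc3b had r = -0.249 with each other.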

How the data were processed

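RNA of olfactory mucosa was amplified and labelled with Cy5, per the labels' protocols. The authors deposited linear probe intensity for 29922 probes and 27 arrays. Scanner, background method and normalization: not given in the sources used here. No label states whether replicates are separate mice or pools, so p-values measure the spread between these samples.

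Before log2, 0 and negative values were replaced by 0.912, the lowest positive one. After quantile normalization between arrays, the mean of a replicate's 3 arrays was taken, which gave 9 values. limma 3.58.1 (statmod 1.5.0, R 4.3.3) fitted the 3 groups, with equal numbers of the occluded and open sides as 1 random block (consensus correlation 0.389), two-sided, with Benjamini-Hochberg adjustment over all probes and a threshold of 0.05. The fit was tested on simulated data. The numbers of arrays and replicates limit the precision. Correlations of same-numbered deviations were 0.516, -0.004 and 0.142 for occluded and open replicates, and 0.353, 0.0672 and 0.00152 for occluded and normal ones, so the values do not settle the pairing by number.

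The array annotation names 21020 probes, and symbols were updated through RefSeq (GRCm38.p6). A gene with several probes is represented by its brightest. Named genes were the members, the 5 most correlated with each, measured neighbours, and list genes past the threshold or with the smallest p. The members and lists were chosen with earlier results of these data known. Kirrel3 and the H2B genes were also named for comparison. Saturation means at least 99.5% of an array's highest value. Permutation tests were exact. Alternatives covered block, normalization, averaging, low values, dim probes, groups in the fit, prior and each replicate left out.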

Additional observations from a re-analysis of the deposited data

How the results depend on the processing

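Neither gene passed the threshold in any alternative. Lrrc3b in occluded against open mucosa lay between -1.43 and -0.87 over 23 alternatives, with adjusted p between 0.0627 and 1.0 and an unadjusted p under 0.05 in 23 of 23. With no replicate block its adjusted p was 0.797, and 0.663 with pairs as a fixed replicate block. Hist2h2be in occluded against open mucosa lay between 0.02 and 0.71, with an unadjusted p under 0.05 in 0 of 23. With pairs as a fixed replicate block its log2 difference was 0.37 ± 0.169 (SE), with an unadjusted p of 0.0881 in limma's test. In occluded against normal mucosa Hist2h2be lay between 0.61 and 1.43, with an unadjusted p under 0.05 in 17 of 22. Lrrc3b in occluded against normal mucosa lay between -0.95 and -0.53, with 12 of 22. Hist2h2be in open against normal mucosa lay between 0.12 and 1.05. Lrrc3b in open against normal mucosa lay between -0.05 and 0.69, and turned to -0.0516 without replicate 2 of all groups. Each of the 9 replicates was also left out singly, which was not planned beforehand. Those quoted by name were chosen after seeing the data. Another choice among several probes gives no value for genes with 1 probe each.

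Of all probes, 66 passed in occluded against open mucosa. With no replicate block 3 passed, with pairs as a fixed replicate block 0, with the number as one 2, with no normalization 0, with median centring 37, with 2 groups alone 14 and with a trended robust prior 102. Leaving out replicates gave 0 to 123. In occluded against normal mucosa 2 passed. With the number as replicate block 0 passed, with no normalization 0, with the median of arrays 5, with a floor of 16 0, with an offset of 50 18, without the dimmest 30% of probes 13, with 2 groups alone 0 and with the trended robust prior 26. Leaving out replicates gave 0 to 1. In open against normal mucosa 0 passed in all alternatives, with 477 at an unadjusted p under 0.05 in the fit reported. The cause of these changes was not tested.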
